A study of Mus musculus with 6 samples.

Results

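Expression of 9 genes that mark the ovarian surface epithelium and the mesothelium was followed in E15.5 mouse ovaries: Upk3b, Upk1b, Lrrn4, Msln, Muc16, Krt7, Krt8, Krt18 and Krt19. The members were chosen by gene name, and the counts of every transcript with that name were summed. This gave 9 out of 35974 gene sums, from 23 of 114412 transcripts, and all 9 passed the filter on low counts. The study asked how inhibition of histone deacetylases (HDACs) during gestation affects the female germline. Ovarian RNA was sequenced strand-specifically from 3 control pools and 3 pools exposed to panobinostat (PB), an HDAC inhibitor.

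All pools came from inbred C57Bl6j mice with no transgene or mutation named. In the PB group, the mother received 5 mg/kg PB by gavage every other day between E6.5 and E15.5, while control mothers received DMSO and water, the solvents that the PB group received too. The labels give the dose per day rather than per other day. A pool is described as 4 ovaries in the extraction protocol, as 6 to 8 in the design text and as at least 8 in the sequencing methods. The design text also calls the control libraries exposed, whereas their treatment label says control, and the treatment label was followed. P-values below measure the spread between these pools, and the sources name no sequencing batch.

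The surface epithelium is the single sheet of cells that covers the ovary, and it is continuous with the mesothelium that lines the body cavity. Both derive from the coelomic epithelium, which also gives rise to supporting cells of the fetal gonad. They are known for simple-epithelial keratins, which form intermediate filaments as pairs of a type II keratin (Krt7, Krt8) and a type I keratin (Krt18, Krt19), and for surface proteins such as mesothelin and the mucin Muc16, which bind each other. In whole ovaries, fewer cells of a type and less RNA per cell cannot be told apart, and each of these genes can also be expressed outside this layer.

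The pools held 97165644 to 125985399 counts. The pregranulosa marker Foxl2 was measured at 135 to 166 normalized counts (CPM, counts scaled to a common library size after TMM correction) and the germ cell marker Ddx4 at 77.7 to 132 CPM, so the defining markers of the labelled tissue were present in every pool. Relative to the other libraries, control 3 held more transcripts of 15 general epithelial genes, 137 CPM in sum against 89.7 to 100.3 CPM. Its Cdh16 level, a cadherin of kidney and mesonephric tubules, was 14.8 CPM against 2.72 and 3.34 CPM in the other controls and 1.90 to 3.87 CPM in PB.

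Most of the members were abundant transcripts of the fetal ovary. Compared per length (TPM, counts divided by transcript length and scaled to a common total), the control order was Upk3b (94.2 ± 13.8), Krt8 (86.2 ± 3.52), Krt19 (68.7 ± 8.28), Krt18 (66.7 ± 0.865), Krt7 (44.4 ± 2.88), Upk1b (13.1 ± 0.184), Lrrn4 (10.8 ± 2.44), Muc16 (1.39 ± 0.130) and Msln (1.34 ± 0.279), each as mean ± SD over 3 pools. The ranges of the controls overlapped between Upk3b and Krt8, Krt19 and Krt18, Upk1b and Lrrn4, and Muc16 and Msln, so these neighbours were not separated. In PB-exposed ovaries, Krt8 and Krt19 overlapped too. Krt8 lay above 96.7% of all gene sums in the controls and Msln above 62.0%. TPM also moves with the division of counts among transcripts, and was used for this order only.

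**Figure D1:**
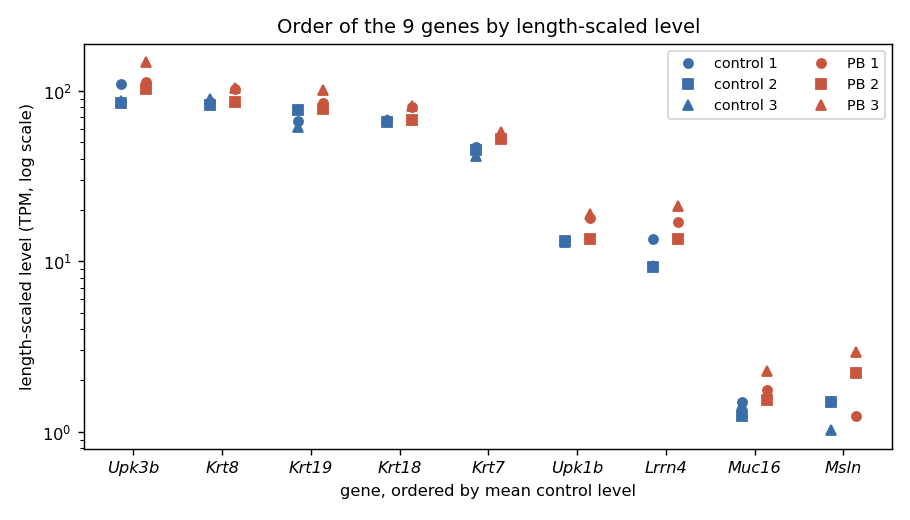
Length-scaled level (TPM, log axis) of the 9 genes in each of the 6 pools, ordered by their mean in the controls, with control pools in blue and PB pools in red. Upk3b and the keratins lie between 41.3 and 147 TPM in every pool, and Muc16 and Msln between 1.02 and 2.95 TPM.

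Across the treatment, all 9 members had a higher mean in PB-exposed than in control ovaries, by 1.05-fold (Krt8) to 1.54-fold (Lrrn4), and none passed the test. A gene was called when edgeR's quasi-likelihood test gave an FDR no higher than 0.05 and the sums differed by 2-fold or more. Of 19435 genes tested, edgeR called 2 as higher (0.0103%) and 1 as lower (0.00515%), and every member had an FDR of 0.888. A positive log2 fold change was found in 9 of 9 members and in 50.7% of all genes tested. Their median log2 fold change was 0.23, against 0.0020 over all genes tested, where the quartiles were -0.097 and 0.10. Among the 12265 genes with a mean CPM within the members' range, the quartiles were -0.078 and 0.069. The 5th and 95th percentiles of these genes were -0.25 and 0.24. An unadjusted p-value under 0.05 in the higher direction was reached by 1 member, Lrrn4, and by 2.03% of all genes, and in the lower direction by 0 members and 2.43% of all genes. In 3 members (Lrrn4, Muc16 and Krt7) all PB pools lay above all control pools, as in 5.1% of all genes. These members share the same 6 pools and are not independent of each other.

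**Figure D2:**
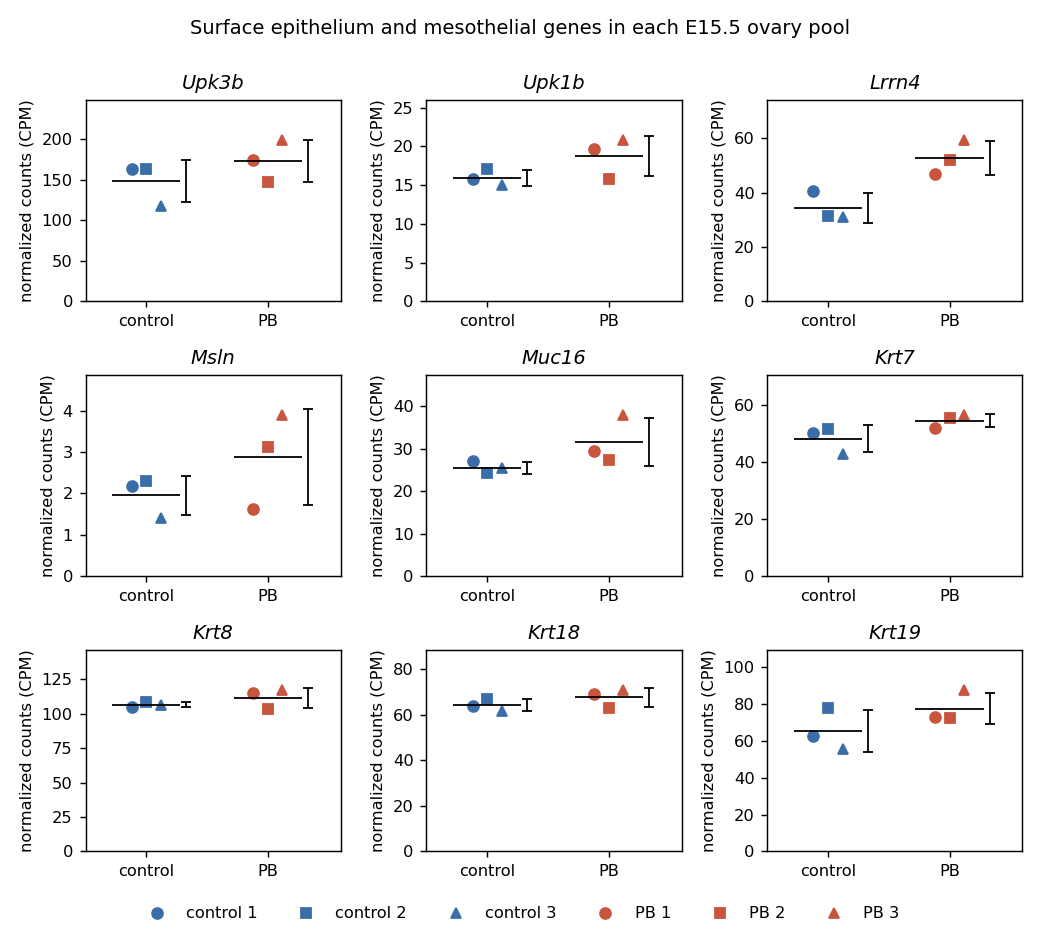
Normalized counts (CPM, axes from 0) of the 9 genes in each pool. Lines are group means and bars are ± SD over 3 pools. PB 3 is the highest point in all 9 panels, and the groups are separated only for Lrrn4, Muc16 and Krt7.

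The 9 genes shared their highest pool, and most shared their lowest, while the order of the other pools differed. The lowest PB pool was PB 2 for 6 members and PB 1 for 3. PB 3 was the highest pool for 9 of 9, and control 3 was the lowest for 7 of 9. The exceptions were Muc16, lowest in control 2, and Krt8, lowest in PB 2. Summed over the members, the controls held 531, 542.9 and 457 CPM and the PB pools 580.5, 539.6 and 653 CPM, so PB 2 lay below control 2. Without control 3 the median log2 fold change of the members was 0.14, without PB 3 it was 0.15, and without PB 2 it was 0.33. The part of control 3 and of PB 3 in the difference was not tested beyond these values.

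The uroplakins are membrane proteins best known from the urothelium, of which Upk3b and the tetraspanin Upk1b are also typical of mesothelium. Upk3b (chr5:136038399-136046756, plus strand) was measured at 163.7, 162.7 and 118 CPM in control and at 173.9, 146.7 and 198.9 CPM in PB. The groups overlapped, since PB 2 lay below controls 1 and 2, and the log2 fold change was 0.23 (SE 0.16, 95% CI -0.16 to 0.61). Without control 3 it was 0.081. Upk1b (chr16:38773182-38800203, minus strand) was lower, at 15.8, 17.1 and 14.97 CPM in control and 19.7, 15.8 and 20.8 CPM in PB. Again PB 2 sat among the controls, and the log2 fold change was 0.23 (SE 0.12, 95% CI -0.041 to 0.51). The Upk3b count was 9.23 times the Upk1b count on average, with a coefficient of variation (CV) of 8.90% over the 6 pools.

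The other uroplakins, Upk1a, Upk2, Upk3a and Upk3bl, which include the partners in the urothelial plaque, were each under 1 CPM in every pool. Summed, they gave 0.733 to 2.02 CPM in control and 0.929 to 1.09 CPM in PB, with the highest value in control 3. Of the 3 that passed the filter, 1 had a positive and 2 a negative log2 fold change (median -0.40), and none was called. Without control 3, 2 were positive and the median was 0.61.

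Lrrn4, a leucine-rich repeat membrane protein, gave the largest difference among the members. The gene (chr2:132864423-132894010, minus strand) was measured at 40.5, 31.2 and 30.9 CPM in control and at 47.0, 52.1 and 59.3 CPM in PB. Every PB pool lay above every control pool. The fold was 1.54 (95% CI 1.23 to 1.93) and the log2 fold change 0.63 (SE 0.13, edgeR FDR = 0.888), and the gene ranked 29 by p-value among those tested. DESeq2's Wald test gave an FDR of 0.0115 for the same sums, and the fold stayed under 2, so that none of the members was among the 0.0539% of genes that DESeq2 called. The sum rests on 5 transcripts among which the counts moved from pool to pool, as described below.

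Mesothelin and Muc16 are a surface glycoprotein and a membrane mucin (the antigen CA125) that bind each other. Msln (chr17:25748613-25754446, minus strand) was the least expressed member, at 2.17, 2.29 and 1.41 CPM in control and 1.61, 3.13 and 3.89 CPM in PB. PB 1 lay below 2 of the controls, and the log2 fold change was 0.56 with a wide interval (SE 0.35, 95% CI -0.28 to 1.40). These values rest on 133 to 452 counts per pool. Muc16 (chr9:18495445-18674821, minus strand) was measured at 27.0, 24.2 and 25.3 CPM in control and at 29.3, 27.3 and 37.8 CPM in PB. The groups did not overlap, although PB 2 exceeded control 1 by less than 1 CPM. Its log2 fold change was 0.30 (SE 0.13, 95% CI -0.0030 to 0.61). The ratio of Muc16 to Msln counts was the most variable one computed, at 8.71 to 18.2 (CV 32.1%), with Msln at low counts.

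Among the keratins, Krt8 and Krt18 had the smallest log2 fold changes of all members. Krt7 (chr15:101412403-101427806, plus strand) was measured at 50.3, 51.9 and 42.9 CPM in control and at 52.0, 55.5 and 56.6 CPM in PB, a log2 fold change of 0.18 (SE 0.083, 95% CI -0.023 to 0.38) that was 0.091 without control 3. The groups touched, with PB 1 just above control 2. Krt8 (chr15:101996711-102004342, minus strand) had 105, 109 and 106 CPM in control and 115, 104 and 117 CPM in PB, and Krt18 (chr15:102028216-102032026, plus strand) had 63.7, 66.9 and 61.7 CPM and 69.3, 63.0 and 70.7 CPM. In both, PB 2 lay inside or below the control range. Their log2 fold changes were 0.070 (SE 0.058, 95% CI -0.069 to 0.21) and 0.079 (SE 0.063, 95% CI -0.072 to 0.23). Krt19 (chr11:100140810-100145926, minus strand) varied more, with 62.6, 78.1 and 55.6 CPM in control and 72.9, 72.5 and 87.6 CPM in PB. Control 2 was its second highest pool, and the log2 fold change was 0.25 (SE 0.14, 95% CI -0.086 to 0.58). Keratins have processed pseudogenes, so reads that fit a near-identical copy are uncertain here.

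**Figure D3:**
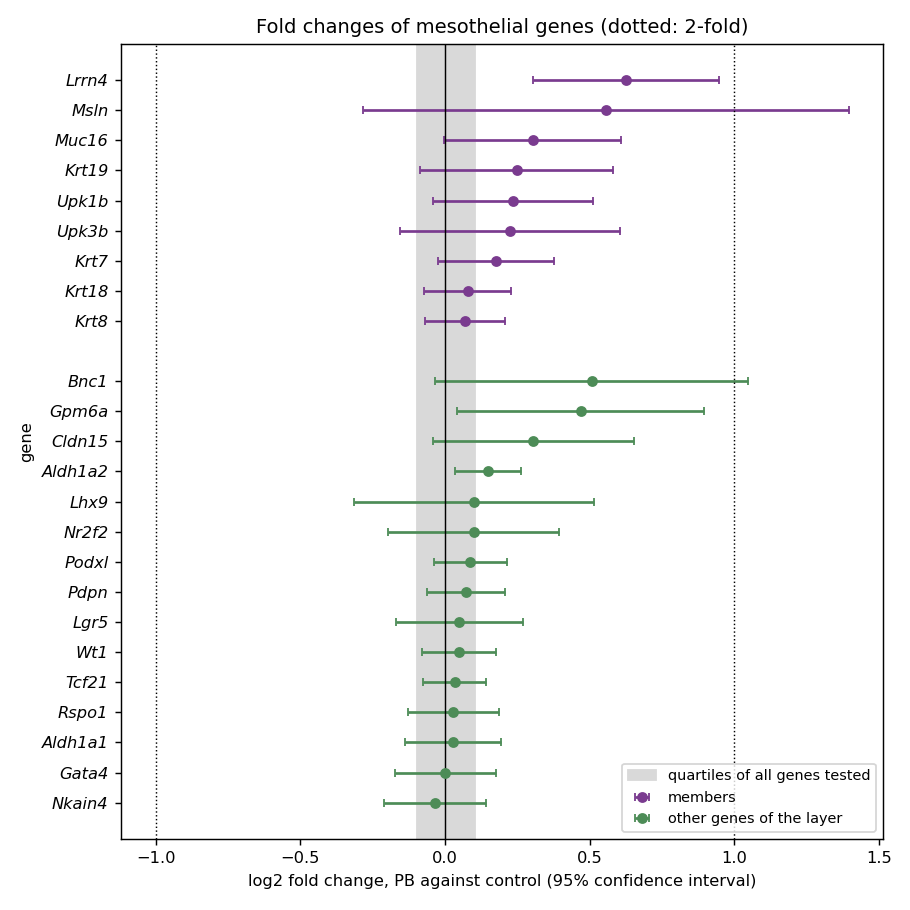
log2 fold change, PB against control, with its 95% confidence interval, for the 9 members (purple) and 15 other genes of the surface epithelium and mesothelium (green). The grey band spans the quartiles of all genes tested (-0.097 to 0.10). All members lie to the right of 0, and no interval of a member but that of Lrrn4 lies wholly above 0.

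Krt8 and Krt18, which assemble with each other into filaments and are neighbours on chromosome 15, had the most constant ratio of the 7 pairs of members that were computed. Krt8 counts were 1.66 times Krt18 counts on average, between 1.62 and 1.72 over all 6 pools (CV 1.98%). By contrast, the CV was 9.39% for Krt8 to Krt7, 12.1% for Krt18 to Krt19 and 8.71% for Krt7 to Krt19. Krt8 itself had a CV of 1.63% among the controls, while Upk3b, Krt19 and Lrrn4 had 17.6%, 17.6% and 15.9%. The sequences before the annotated starts of Krt7, Krt8 and Krt18, all on chromosome 15, are shown as a description. Whether they bear on these ratios was not tested.

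For each gene these are the 250 bases before the RefSeq start in GRCm38.p6, 5′ to 3′ on the gene's strand, with matches to any of 6 motifs in capitals. The windows are chr15:101412153-101412402 for Krt7 (plus strand), chr15:102004343-102004592 for Krt8 (minus strand) and chr15:102027966-102028215 for Krt18 (plus strand).
Krt7: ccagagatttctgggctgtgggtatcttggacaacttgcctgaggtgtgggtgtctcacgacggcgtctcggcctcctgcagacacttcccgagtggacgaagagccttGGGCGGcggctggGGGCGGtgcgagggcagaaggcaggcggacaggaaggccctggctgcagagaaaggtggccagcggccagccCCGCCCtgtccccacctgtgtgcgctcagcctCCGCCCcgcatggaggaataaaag
Krt8: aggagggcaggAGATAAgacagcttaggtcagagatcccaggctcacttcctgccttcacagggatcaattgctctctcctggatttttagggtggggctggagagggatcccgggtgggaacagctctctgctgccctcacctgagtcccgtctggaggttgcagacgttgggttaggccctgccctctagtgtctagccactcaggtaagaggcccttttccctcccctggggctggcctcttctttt
Krt18: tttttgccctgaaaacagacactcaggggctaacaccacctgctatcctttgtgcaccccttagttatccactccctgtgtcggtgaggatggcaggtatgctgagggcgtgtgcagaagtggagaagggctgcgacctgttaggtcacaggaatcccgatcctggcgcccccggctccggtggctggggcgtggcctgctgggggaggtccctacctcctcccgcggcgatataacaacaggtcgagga

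The motifs were searched on both strands as exact letters: a TATA box (TATAAA, found in 12.4% of 32851 RefSeq windows of this length), a CCAAT box (CCAAT, 33.8%), a GC box (GGGCGG, 32.7%), an AP-1 motif (TGANTCA, 6.75%), a TEAD motif (GGAATG, 12.6%) and a GATA motif (AGATAA, 9.99%). Krt7 held 4 GC boxes, 141, 128, 56 and 24 bases before the start, the last 2 on the opposite strand. Krt8 held 1 GATA motif 239 bases before its start, and Krt18 held none of the 6. Entries were found for 6 of the 9 members. The windows of the other 3, Upk3b, Lrrn4 and Muc16, overlap transcripts of these genes that start further upstream, so they are not described. The GC content was 66.0% for Krt7, 58.0% for Krt8 and 60.4% for Krt18, against a median of 52.4% over all windows. A match describes letters in a window and is not evidence of binding.

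At the level of transcripts, the deposited counts were divided in a way that differed strongly between pools of the same group. StringTie assigns the reads of a locus to its transcripts by coverage, and the biological coefficient of variation was 98.41% for transcripts against 20.94% for gene sums. Of the 23 transcripts, 22 had a count, 16 passed the filter, and none was called by edgeR, which called 7 of 51227 as higher (0.0137%) and 10 as lower (0.0195%). None of the 16 had an unadjusted p-value under 0.05. DESeq2 gave an adjusted p-value to 16 transcripts, not all of them the same ones, and called 1 of these. Of all transcripts with an adjusted p-value, DESeq2 called 0.95% as higher and 0.902% as lower.

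The transcript that DESeq2 called was Muc16 XM_011242635.1, which did not pass edgeR's filter and so was not tested by edgeR. It had 0 counts in all controls and in PB 1, and 2787 and 4397 counts in PB 2 and PB 3 (DESeq2 FDR = 0.0304). XM_011242634.1 had 2654, 2827 and 2385 counts in control, 2910 in PB 1, and 0 in PB 2 and PB 3. Each pool therefore carried all Muc16 counts on 1 of the 2 transcripts, and the PB pools did not share the same one. A count of 0 here is the share that StringTie gave when it divided the coverage between the 2 transcripts. It does not bound how many reads held or skipped the differing exon. Reads over this exon were not examined, and whether its use differed between pools was not tested. The transcripts differ by a single coding exon of 36 bases, the 5th of 88, at chr9:18622200-18622235 on the minus strand of GRCm38, and share 26782 of 26818 bases (99.9%). The exon is shown because the whole assignment turns on it, in capitals and with 30 bases of the neighbouring exons on each side, from the GENCODE transcript ENSMUST00000208663.1.
Muc16: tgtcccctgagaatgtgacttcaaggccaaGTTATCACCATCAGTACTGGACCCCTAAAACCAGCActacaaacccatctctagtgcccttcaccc

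Its length is a multiple of 3. The third model, XM_011242636.1, had 0 counts in every pool.

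**Figure D4:**
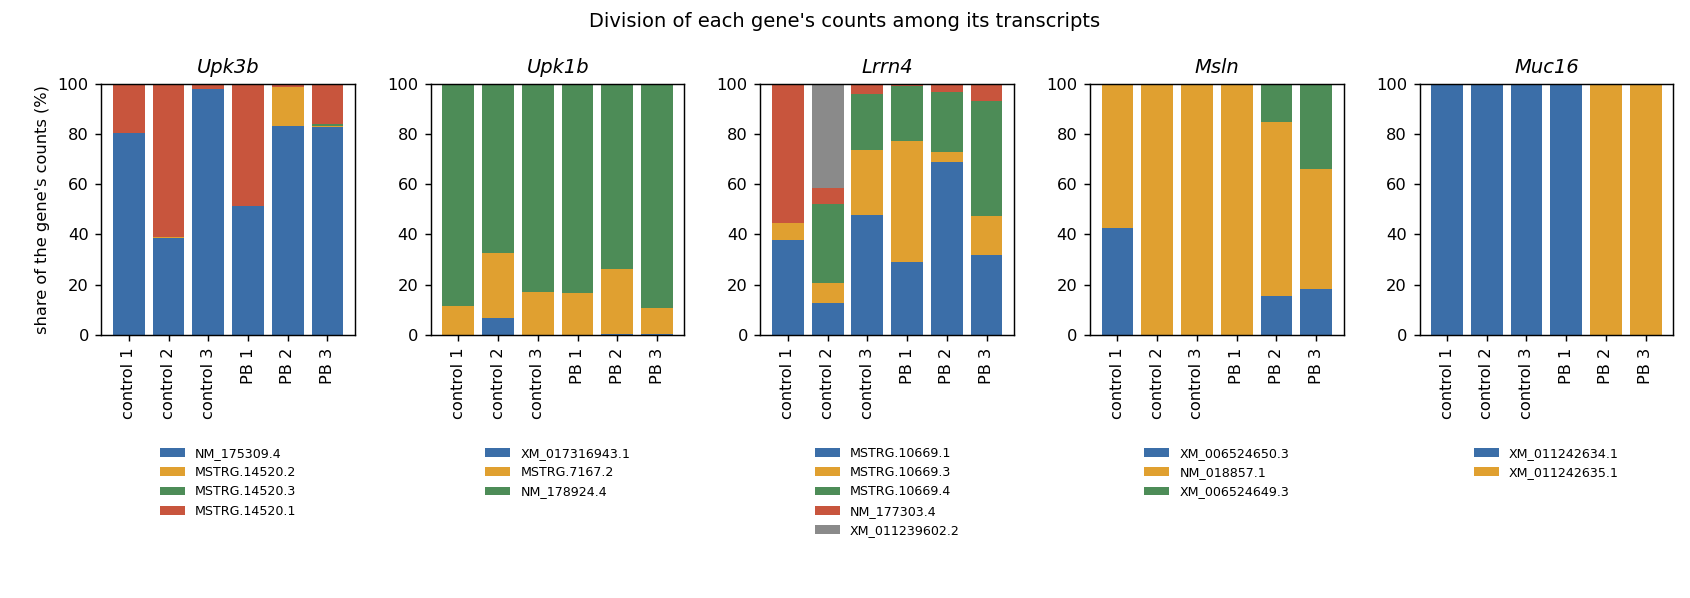
Share of each gene's counts (%) given to each of its transcripts in the 6 pools, for the 5 members whose counts were divided. Muc16 passes wholly from one transcript to the other between PB 1 and PB 2, and Lrrn4 has 5 different leading transcripts in 6 pools.

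Lrrn4 counts were divided among 5 transcripts, and 5 different ones led in at least 1 pool. NM_177303.4 had 2214, 233 and 118 counts in control and 41, 178 and 463 in PB. XM_011239602.2 had 1514 counts in control 2 and 0 elsewhere. The assembled transcripts held most of the rest, with MSTRG.10669.1 at 1505, 457 and 1395 counts in control and 1350, 3653 and 2190 in PB, MSTRG.10669.3 at 261, 297 and 745 and then 2237, 220 and 1074, and MSTRG.10669.4 at 0, 1136 and 656 and then 1030, 1269 and 3166. Known transcripts, those that match a RefSeq intron chain, held 55.6%, 48.0% and 4.05% of Lrrn4 counts in control and 0.880%, 3.35% and 6.72% in PB. Summing those alone gave the opposite direction, with a log2 fold change of -2.66 (SE 1.20, edgeR FDR = 0.917), so the value of 0.63 depends on counting the assembled transcripts. MSTRG.10669.3 contains all 3475 bases of NM_177303.4.

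Upk3b counts lay on NM_175309.4, at 12894, 7342 and 10869 counts in control and 8820, 12484 and 19179 in PB, and on the assembled MSTRG.14520.1, at 3170, 11616 and 236 and then 8423, 182 and 3673. The latter led in control 2. Upk1b counts lay on NM_178924.4 (81.0% over all pools) and MSTRG.7167.2 (17.6%), which differ by 2 bases. Msln counts lay on NM_018857.1, at 122, 267 and 133 counts in control and 160, 221 and 216 in PB, on XM_006524650.3, at 91, 0 and 0 and then 0, 50 and 82, and on XM_006524649.3, at 0, 0 and 0 and then 0, 49 and 154. Both later models were at 0 in PB 1. Krt7 (NM_033073.3), Krt8 (NM_031170.2) and Krt18 (NM_010664.2) each had 1 transcript, and NM_008471.3 held over 99.9% of Krt19 counts in every pool, so their values do not depend on any division.

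Other genes of the layer also had mostly positive values. The list held 15 further genes of the surface epithelium, coelomic epithelium and mesothelium, among them Wt1, Gata4 and Lhx9, which encode transcription factors needed for the gonad. All were tested and none was called. Tcf21 (log2 fold change 0.033) and Nr2f2 (0.099) were also placed in the interstitial list used below, where they are the only positive genes. This list, like the others, was chosen with earlier results of these data known. Positive log2 fold changes were found in 14 of 15, against 50.7% of all genes tested, with a median of 0.073. Without control 3, 11 were positive and the median was 0.037. In 4 of the 15 all PB pools lay above all control pools, against 5.1% of all genes. An unadjusted edgeR p-value under 0.05 was reached by 2 of them, and by 2.03% of all genes in the higher direction. These 2 were Aldh1a2, a retinoic acid-synthesizing enzyme, and Gpm6a, a membrane glycoprotein. Aldh1a2 had 161, 157 and 153 CPM in control and 174, 167 and 182 CPM in PB (log2 fold change 0.15, SE 0.047), and Gpm6a 9.48, 9.72 and 7.08 CPM and 10.8, 10.7 and 14.8 CPM (0.47, SE 0.18). Neither had an unadjusted p-value under 0.05 without control 3 or without PB 3. Bnc1, a zinc-finger factor, had the largest value of the list, 0.51 (SE 0.23), with overlapping groups. Wt1 had 296, 279 and 266 CPM in control and 299, 287 and 282 CPM in PB (0.047, SE 0.053). Gata4, which several somatic cell types of the gonad also express, had a log2 fold change under 0.001 in size.

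The genes whose pools most resembled the mean profile of the members were Gpm6a (Pearson r = 0.999), Gdf6 (0.995), Prdm15 (0.993), Cldn15 (0.991) and Rnf168 (0.990), of 14773 genes over 6 pools. The profile used centred log2(CPM + 0.5) values, and the pools share the library depth and scaling. Gpm6a and the claudin Cldn15 belong to the list of the layer described above. Cldn15 had 5.77, 6.05 and 4.66 CPM in control and 6.27, 6.30 and 7.79 CPM in PB, lowest in control 3 and highest in PB 3. The correlation is given as a description of 6 points.

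General epithelial genes had mostly negative values. Of 15 genes of junctions and epithelial identity, such as Cdh1, Epcam and the claudins, 14 had a negative log2 fold change (49.3% of all genes tested), none was called, and the median was -0.27. Cldn7 was the only one with an unadjusted p-value under 0.05 (log2 fold change -0.98, SE 0.37), and in 3 (Epcam, Cldn7 and Ocln) all PB pools lay below all controls, as in 5.61% of all genes. Control 3 stood apart here. Cdh1 had 13.5 CPM there, against 7.32 and 4.91 CPM in the other controls and 4.87 to 5.71 CPM in PB. Without control 3, 10 of 15 were negative and the median was -0.094.

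Mesonephric and Wolffian genes, whose epithelium lies beside the ovary and also carries simple keratins, gave 3 positive and 5 negative values among 8, none called, with a median of -0.12. The direction varied with the pool left out, with 6 positive and a median of 0.058 without control 3, 5 positive and 0.013 without PB 3, and 8 negative and -0.24 without PB 2. Summed, they held 171 to 186 CPM in control and 160 to 189 CPM in PB, of which Emx2, a factor that the ovarian surface also expresses, made up 124 to 138 CPM. Control 3, where Cdh16 was highest, was the pool with the lowest Upk3b, Krt18 and Krt19. In that pool, the mean profile of the members and those of both epithelial lists lay on opposite sides of 0, although Emx2 (128 CPM) and Ret (18.9 CPM) were not high there.

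**Figure D5:**
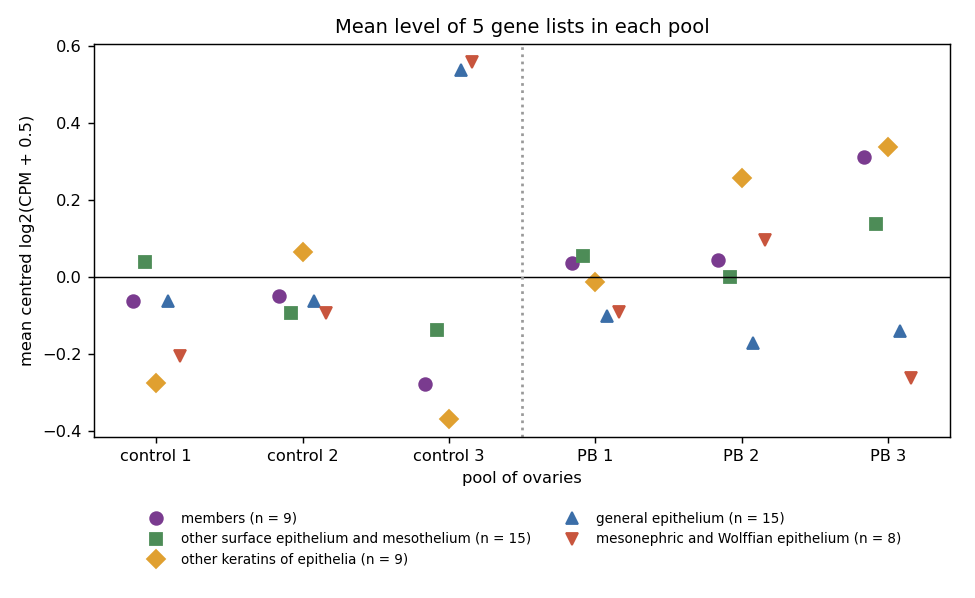
Mean of centred log2(CPM + 0.5) over the genes of 5 lists in each pool. The members lie at -0.28 in control 3 and at 0.31 in PB 3, whereas general epithelial and mesonephric genes peak in control 3 at 0.54 and 0.56.

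Markers of other cell types gave no called gene. For pregranulosa cells, 6 of 8 genes were negative (median -0.043), and for germ cells 5 of 8 (-0.020), against 49.3% of all genes tested. For interstitial cells this was 4 of 6 (-0.060) and for endothelium 4 of 5 (-0.14). Genes of Sertoli cells, a cell type of the testis, were read here in ovary RNA and were negative in 4 of 5 (-0.094). Red blood cell genes were negative in 6 of 6 (-0.29) and macrophage genes in 5 of 5 (-0.18), and of the 5 adrenal and Leydig genes tested 4 were positive (0.044). Several of these medians rest on 1 pool. Without control 2, 3 of the 6 red blood cell genes were positive (median -0.0038). Without PB 2, 6 of 8 germ cell genes were positive (0.18), without control 3, 3 of 5 Sertoli genes (0.071), and without PB 3, 5 of 8 pregranulosa genes (0.033). With all pools, the 3 positive germ cell genes were Sycp3 (log2 fold change 0.34), Tex101 (0.27) and Mael (0.25), while Ddx4 (-0.036) and Dazl (-0.0031) were near 0. In the lower direction, an unadjusted edgeR p-value under 0.05 was reached by 2 of 8 germ cell genes, Pou5f1 (-0.58) and Dppa3 (-0.52). The others that reached it were 1 of 8 pregranulosa genes, Amhr2 (-0.15), 1 of 6 red blood cell genes, Hba-a2 (-0.77), and 1 of 5 macrophage genes, Lyz2 (-0.79). Over all genes 2.43% reached it, and no gene of these lists did in the higher direction. None of the germ cell, pregranulosa and red blood cell genes reached it without control 1, and no macrophage gene without PB 3. Germ cell genes summed to 664 CPM in control 2 and 562 CPM in PB 2, against 866 to 1016 CPM in the other pools. PB 2 was the lowest PB pool for 6 of the 9 members, whereas control 2 was the highest control pool for 6 of them. The part of germ cell content in the levels of the members was not tested.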

How the data were processed

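RNA-seq libraries of 3 control and 3 PB pools were analysed. The authors aligned reads to mm10 with HISAT2 2.1.0, used StringTie 1.3.5 with RefSeq for the merged transcriptome, and deposited unnormalized counts per transcript. These come from prepDE, which converts coverage to whole numbers of reads. The deposited annotation (unit other) gave gene names, StringTie class codes and positions in mm10. The columns of the authors' DESeq2 1.30.0 comparison (fold change, standard error, p-value, adjusted p-value) and 6 columns of normalized values per sample were not used.

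Counts were summed by gene name. The 1493 transcripts without a name, 3 of them without an annotation entry, held 3.05% to 4.49% of the counts of a pool and entered the transcript fit only. Gene sums and transcripts were fitted over all genes with edgeR 4.0.16 (R 4.3.3, limma 3.58.1, data.table version 1.17.8): TMM scaling, filterByExpr (minimum count 10, minimum total 15), quasi-likelihood F-test without covariates, two-sided, Benjamini-Hochberg adjustment, called at FDR 0.05 or lower with a 2-fold or larger change. SE is the log2 fold change divided by the square root of F, and confidence intervals are 95%. TPM divided each transcript's counts by its exon length before summing. Likeness was the Pearson correlation of log2(CPM + 0.5) with the members' mean profile, among genes with a mean of at least 1 CPM. Only the edgeR fit of gene sums was tested on simulated data, with changes larger than those of the members. Its power for changes of the members' size was not tested.

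Alternatives were DESeq2 1.42.0 (Wald test, size factors), other filters and thresholds, a replicate block, known transcripts only, StringTie loci and each pool left out. Named were all 9 members, the transcripts with at least 5% of a member's counts or called, the 5 most alike genes and examples of each list. XM_011242636.1, MSTRG.14520.2 and list examples beyond the lowest FDRs were chosen after their values were seen. The members and all lists were chosen with earlier results of these data known. Promoter windows came from RefSeq tables (GRCm38.p6) and the Muc16 exon from GENCODE. For the members, precision at this depth is limited by the spread between 3 pools per group rather than by counting. Some list genes rest on few counts, such as Upk3bl and Krt23 with 0 to 23 per pool, where counting limits precision too.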

Additional observations from a re-analysis of the deposited data

How the results depend on the processing

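The members were evaluated under 15 alternative settings, which gave 135 values. In 2 of the settings only a threshold differed, so that their values repeat those reported. Of the 135, 134 kept the direction and did not meet the FDR and fold thresholds together (Lrrn4 with DESeq2 met the FDR threshold alone, at 0.0115), and 1 reversed, the Lrrn4 log2 fold change of -2.66 with known transcripts only, the sum that leaves out the assembled transcripts. DESeq2's Wald test moved the number of member transcripts called from 0 to 1, a transcript that the reported edgeR fit had filtered out. With 1 pool left out, between 0 and 0 members, 0 and 0 of their transcripts, 0 and 0 other genes of the layer and 0 and 0 mesonephric genes were called. Counts of direction, added after seeing the data, were 9 to 9 positive members, 8 to 9 positive other keratins and 10 to 14 negative general epithelial genes, the lowest without control 3. Members with an unadjusted p-value under 0.05 numbered 1 in the reported fit, 3 without control 2, 5 without PB 2, 2 with DESeq2 and 0 with known transcripts only. Over all genes, 394 higher and 473 lower of 19435 reached it in the reported fit and 1469 and 972 of 19821 without PB 2. Upk3b ranged from a log2 fold change of 0.081 (without control 3) to 0.33 (without PB 2), Krt8 from 0.035 (without PB 3) to 0.12 (without PB 2), Upk1b from 0.15 (without PB 3) to 0.34 (without PB 2), Muc16 from 0.15 to 0.40 (the same pools), Krt18 from 0.045 to 0.13 (the same pools), Krt7 from 0.091 (without control 3) to 0.23 (without control 2), Krt19 from 0.14 to 0.39 (the same pools as Krt7) and Msln from 0.28 (without PB 3) to 0.84 (without PB 1). The genes called numbered 3 in the reported fit, 11 with DESeq2, 8 with known transcripts only and 3 to 9 with 1 pool left out, the highest without PB 2. Transcripts called numbered 17, against 1172 with DESeq2, 39 with the stricter filter, 51 at an FDR of 0.1 and 0 to 19 with 1 pool left out.

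The same replicate number in both groups was checked as a pairing. Deviations of same-numbered pools correlated at 0.0934, 0.147 and -0.0177, and those of differently numbered pools at -0.167 to 0.0963. Deviations from a mean of 3 pools depend on each other, so these values cannot decide whether the numbers pair the samples. With the replicate block, 0 members, 0 of their transcripts, 0 other genes of the layer and 0 mesonephric genes were called, and the calls over all genes went from 3 to 0 and over all transcripts from 17 to 0. For the members, the spread between 3 pools per group set the limit, also for Msln, which had the fewest counts (133 to 452 per pool). The CV of Msln was 24.3% among the controls and 40.3% among the PB pools.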

Other observations

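Keratins outside the member list, most of them known from stratified epithelia, were scarce in these ovaries and had mostly positive values. The 9 genes (Krt5, Krt14, Krt15, Krt17, Krt20, Krt23, Krt80, Krt10 and Krt1) summed to 23.6 to 34.0 CPM in control and 32.4 to 42.6 CPM in PB. A positive log2 fold change was found in 8 of 9 (median 0.65, from -0.077 for Krt20 to 0.91 for Krt5), against 50.7% of all genes tested, and none was called by edgeR. An unadjusted p-value under 0.05 was reached by 4 of them, and by 2.03% of all genes in the higher direction. It was reached by 1 of them without control 1, without PB 2 or without PB 3, although without PB 2 the number over all genes went from 394 of 19435 to 1469 of 19821. Krt10, a keratin of differentiating epidermis, was measured at 4.04, 5.04 and 3.67 CPM in control and at 5.63, 7.202 and 7.17 CPM in PB, with every PB pool above every control pool (log2 fold change 0.65, SE 0.16, edgeR FDR = 0.888). Its partner Krt1 had 3.06, 4.21 and 2.17 CPM in control and 4.63, 4.64 and 5.23 CPM in PB (0.62, SE 0.24). The basal keratin Krt5 had 1.77, 3.19 and 1.47 CPM and 2.47, 4.91 and 4.71 CPM, so PB 1 lay below control 2. The mean centred log2 level of the list was -0.37 in control 3 and 0.34 in PB 3, against -0.28 and 0.31 for the members, and the source of these transcripts was not tested.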
